A study of Rattus norvegicus with 2 samples.

Results

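The genes described here encode the acid, degradative end of the cell's membrane traffic: subunits of the vacuolar proton pump, cathepsins, lysosomal membrane glycoproteins, the Ragulator scaffold, autophagy (ATG) proteins and vacuolar protein sorting (VPS) proteins. They were read from RNA sequencing of H9c2, a cell line of cardiac myoblasts that was established from the heart of a rat embryo. The control culture received 0.9 mM phosphate and the treated culture 2.5 mM phosphate, both for 12 h in DMEM without serum, after growth in DMEM with fetal bovine serum and antibiotics. With 1 library for each condition nothing below has a replicate check, no p-value is given, and "higher" and "lower" only compare the listed values of 2 libraries. Members were chosen by name: protein-coding rat genes whose symbols start with Atg and a digit, Atp6v, Atp6ap, Lamp and a digit, Lamtor, or Vps and a digit, or consist of Cts and 1 letter, whose FPKM averaged 1 or more across the libraries. FPKM counts the fragments of a gene relative to its transcript length and to all mapped fragments. Of 108 such symbols in the gene table, 49 were listed in the files under a usable identifier, and 39 of these passed the filter, among 4366 genes that passed it in all. The 10 that did not pass and the 59 other symbols take no part in the counts; the latter were not analysed here.

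Lysosomes digest proteins, lipids and sugars delivered by endocytosis and autophagy, and their enzymes need the low pH that the vacuolar ATPase maintains by pumping protons. Autophagy encloses cytoplasm in a double membrane built by the ATG proteins and hands it to the lysosome, while VPS complexes sort, tether and fuse the endosomal membranes on the way. The lysosomal surface is also where Ragulator and the Rag GTPases recruit mTORC1, the growth kinase that restrains autophagy. In heart muscle, where cells are rarely replaced, this route clears worn mitochondria and proteins.

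Most members differed little between the phosphate levels. None of the 39 members was at least 2-fold higher in high phosphate on the scale log2((high phosphate FPKM + 1)/(control FPKM + 1)), where 1.76% of all measured genes were, and 0 were at least 2-fold lower, where 0.870% of all were. At 1.5-fold, 0 members were higher, beside 7.21% of all genes, and 2 were lower, Atg9a and Lamtor3, beside 3.37% of all genes. A set of 39 genes holds few calls at such background shares, so these counts do not set the members apart. Log2 ratios of members ran from -0.73 to 0.44 with a median of -0.05, beside 0.00 over all genes, and 18 members were higher and 21 lower; above 0 lay 50.5% of all genes. Within 0.25 of 0 lay 30 members (76.9%), beside 59.9% of all genes, and above a mean of 50 FPKM 16 of 19 members (84.2%), beside 65.3% of 904 genes at that level. Summed over members, the listed FPKM were 4496.7 in the control and 4535.9 in high phosphate, a ratio of 1.01, beside 1.12 over all measured genes.

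**Figure D1:**
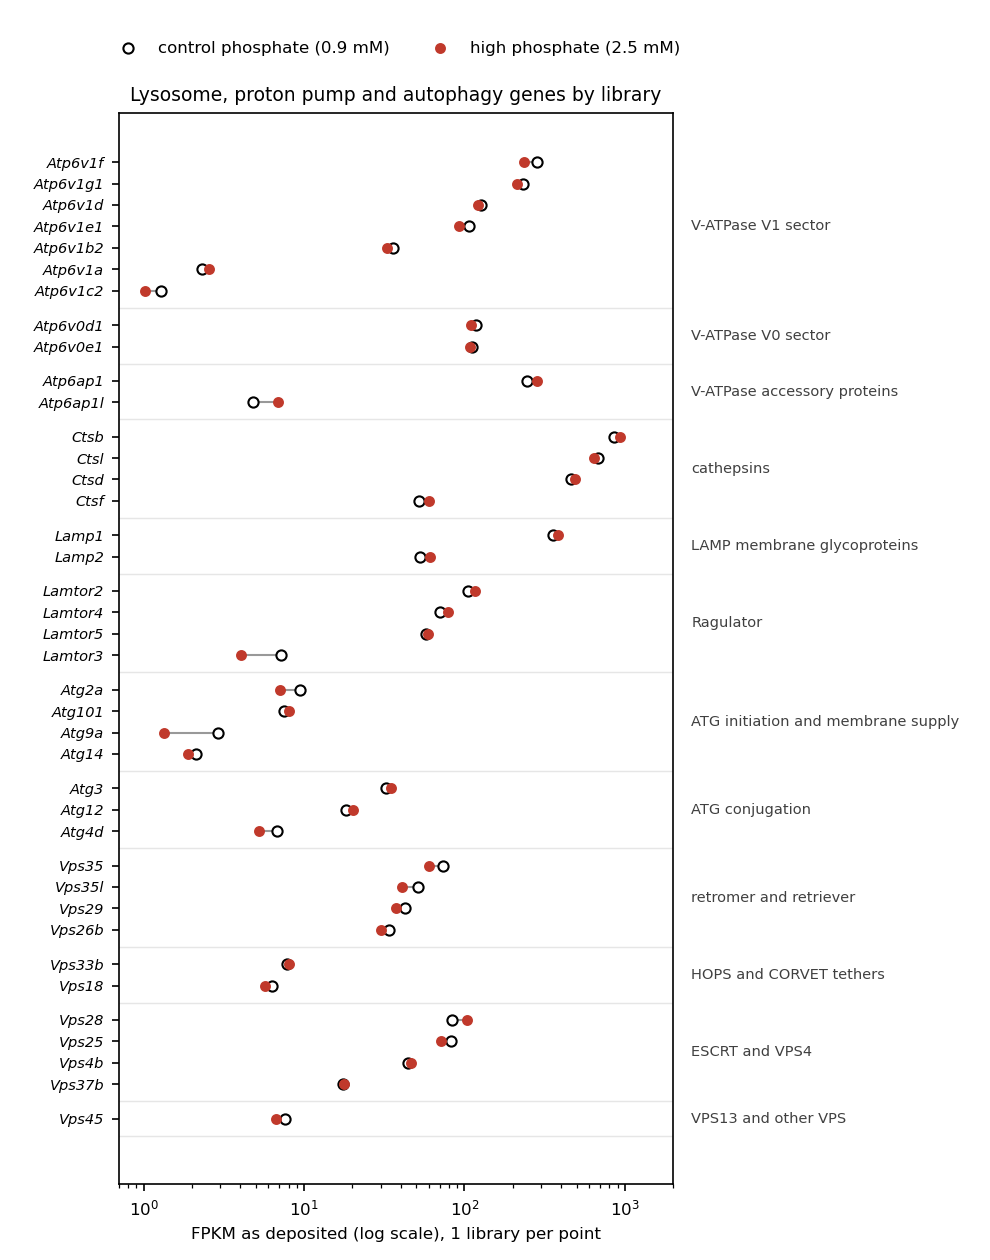
Listed FPKM (horizontal log axis) of the 39 members, grouped by role on the vertical axis; open points are the control library (0.9 mM phosphate) and red points the high phosphate library (2.5 mM), with a line joining the 2 values of a gene. The points of most genes nearly coincide, and the widest gaps are those of Atg9a (2.89 and 1.34 FPKM) and Lamtor3 (7.13 and 4.03 FPKM).

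The libraries' sums over all 8039 listed entries differed, at 307622 in the control and 346857 in high phosphate, and no source used here says whether the authors scaled one library to the other. Rescaling both to the same sum moved the median log2 ratio of all genes from 0.00 to -0.15 and that of the members from -0.05 to -0.22. On that scale 5 members were higher, beside 32.2% of all genes. Still none passed 1.5-fold upward, beside 4.47% of all genes. Atg9a and Lamtor3 remained those past 1.5-fold downward, beside 6.62% of all genes. Directions are therefore given below with their count after this rescaling where it differs, and "rescaled" below means to the same sum. Counts within each role group are to be read beside 50.5% of all genes higher as deposited and 32.2% rescaled. Directions depended less on the other scalings tried. With the libraries scaled to the same median ratio, 18 members were higher (median log2 ratio -0.05). The median of all genes was already 0.00 as deposited, so that scaling could change little. With the same upper quartile, 17 were higher (median -0.07). Which scaling is right cannot be told from 1 library per level. The low values step by 0.01, so the reads behind each value are unknown and no counting interval is given.

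The listed muscle and other cell type markers were read as a check of the label. Of 20 cardiac and skeletal myoblast markers sought, 7 were listed, so the check is partial and does not settle a cardiac identity. Desmin (Des), the muscle intermediate filament, was listed at 128.5 and 153.3 FPKM in control and high phosphate, and Cav3 at 28.51 and 35.26 FPKM. Mef2d had 9.58 and 7.41 FPKM, the myogenic factor Myod1 6.11 and 1.59 FPKM and Acta1 1.57 and 1.64 FPKM. Myog was listed at 0.13 and 0.06 FPKM and slow myosin (Myh7) at 0 in both. Macrophages are rich in lysosomes, and of 7 listed macrophage markers only Cd68, a lysosomal glycoprotein, passed the filter (1.06 and 1.38 FPKM); Ptprc, the pan-leukocyte marker CD45, was listed at 0 in both libraries. Genes that every cell uses were also listed near 0, such as clathrin light chain Clta at 0 and 0.1 FPKM, so a value near 0 is given as listed and does not show absence. Of the 3 listed osteoclast markers, cathepsin K (Ctsk) had 0.28 and 0.23 FPKM, Atp6v0d2 0 and 0.16 FPKM and the matrix protease Mmp9 0.99 and 2.47 FPKM. Fibroblast markers differed widely in level. S100a4 had 3291 and 3249 FPKM, the collagen gene Col3a1 489 and 844 FPKM and Thy1 232 and 317 FPKM. By contrast, Dcn had 5.11 and 8.63 FPKM, Lum 3.63 and 6.97 FPKM, Col1a1 0.79 and 1.8 FPKM and Tcf21 0 and 0.07 FPKM. Of 6 measured fibroblast markers 5 were higher in high phosphate, on both scales, and 4 were at least 1.5-fold higher (median log2 ratio 0.65). Their summed FPKM over the 6 were 4021.2 and 4426.6; Pdgfra, a defining fibroblast marker, was listed at 0 in both libraries, and the part of these genes' difference in the members' values was not tested. In RNA from a whole culture, fewer cells of a kind and less RNA per cell cannot be told apart.

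Among the proteases, 4 cathepsins passed the filter and made up 45.6% of the members' summed FPKM in the control and 46.8% in high phosphate. Cathepsin B (Ctsb), a cysteine protease, was listed at 860.1 and 933 FPKM, rank 70 among the 4366 genes by mean level. Cathepsin L (Ctsl), another cysteine protease, had 679 and 644 FPKM, and the aspartic protease cathepsin D (Ctsd) 461 and 485 FPKM. Cathepsin F (Ctsf) was lower in level, with 52.25 and 60.25 FPKM, and had the highest log2 ratio of the 4, at 0.20. The other 3 had log2 ratios of 0.12 for Ctsb, 0.07 for Ctsd and -0.07 for Ctsl. As deposited 3 of the 4 were thus higher, and after rescaling 1 of 4, Ctsf at 0.03. Of the 6 listed cathepsins under the filter, Ctse and Ctsh were at 0 in both libraries, and Ctss, Ctsk, Ctsz and Ctsw ranged up to 0.48 FPKM in either.

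The lysosome-associated membrane proteins, heavily glycosylated proteins that line the inner face of the lysosomal membrane, were both slightly higher as deposited. Lamp1 had 354 and 380.3 FPKM (log2 ratio 0.10). Lamp2, whose isoforms serve chaperone-mediated autophagy and autophagosome fusion and whose loss causes a cardiomyopathy, had 52.8 and 61.3 FPKM (log2 ratio 0.21). After rescaling, Lamp1 turned to -0.07 while Lamp2 stayed at 0.04.

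Promoter sequences are shown for the members that carry an E-box, since TFEB and its relatives TFE3 and MITF, the transcription factors known to switch lysosomal genes on as a set, bind E-boxes of the form called CLEAR. RefSeq promoter windows of the assembly GRCr8 (250 bases before to 50 after the start site) matched 33 members; Atg9a, Lamtor3, Ctsb, Vps28, Vps35l and Atp6v1b2 had none in the table. The palindrome CACGTG was found in 8 of the 33 windows (24.2%), beside 6.65% of 27457 windows of all genes and 11.0% of 3609 windows of measured genes. The share was not particular to the members. Among genes of 2 lists read below, 4 of 17 windows of other lysosomal enzymes (23.5%) and 6 of 20 of lysosomal membrane proteins (30.0%) held it. With a flanking base pair on both sides, TCACGTGA was found in 5 (15.2%), beside 0.867% of all windows and 2.05% of those of measured genes; each of these also counts as a CACGTG. The form GTCACGTG, or its reverse complement CACGTGAC, was found in 7 windows (21.2%), beside 2.02% of all and 4.52% of measured genes. The shorter ACGTG, the core bound by hypoxia-inducible factors and itself part of every CACGTG, was found on either strand in 14 windows (42.4%), beside 19.7% of all and 28.9% of measured genes. Lamp1 and Ctsd are shown for the 200 bases before the start site, at chr16:83075064-83075263 and chr1:206968822-206969021, both on the minus strand. They hold 5 and 2 copies of CACGTG, the letters in capitals.
Lamp1: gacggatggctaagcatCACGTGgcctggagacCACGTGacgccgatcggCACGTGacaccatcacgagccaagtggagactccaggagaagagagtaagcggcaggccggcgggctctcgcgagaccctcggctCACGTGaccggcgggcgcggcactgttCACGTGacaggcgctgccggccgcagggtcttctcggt
Ctsd: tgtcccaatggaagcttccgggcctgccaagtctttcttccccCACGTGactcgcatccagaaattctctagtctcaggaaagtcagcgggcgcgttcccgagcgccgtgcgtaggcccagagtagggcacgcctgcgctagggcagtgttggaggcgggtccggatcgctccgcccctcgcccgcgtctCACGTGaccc
The other 6 are shown around the box, to compare its flanks. Atg3 (chr11:69159281-69159339, minus strand) holds 2 copies, and Atp6v0d1 (chr19:50357275-50357320, minus), Vps37b (chr12:38220901-38220946, plus) and Ctsf (chr1:211582000-211582045, plus) hold 1 before the start site. In Atp6v0e1 (chr10:17007115-17007144, minus) and Atg14 (chr15:23306792-23306821, minus) the box lies after the start site.
Atg3: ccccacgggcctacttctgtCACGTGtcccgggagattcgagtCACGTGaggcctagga
Atp6v0d1: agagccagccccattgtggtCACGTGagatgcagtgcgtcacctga
Vps37b: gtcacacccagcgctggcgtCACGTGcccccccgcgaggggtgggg
Ctsf: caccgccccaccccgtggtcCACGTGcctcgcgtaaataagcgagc
Atp6v0e1: tcgcgcgccggtCACGTGagcctctgttga
Atg14: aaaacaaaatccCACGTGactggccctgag
The form TCACGTGA occurs in Lamp1, Ctsd, Atg3, Atp6v0d1 and Atp6v0e1. Log2 ratios of the 8 genes with a CACGTG ran from -0.12 to 0.20 with a median of 0.04, and those of the 25 without one from -0.37 to 0.44 with a median of -0.07. The first range lies inside the second. The 6 genes without a window, among them Atg9a and Lamtor3, ran from -0.73 to 0.31. A match in a window is a description of its letters, not of binding. Tfeb itself was listed at 0 and 0.03 FPKM.

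The vacuolar ATPase joins a cytosolic V1 sector, which hydrolyses ATP, to a membrane V0 sector, which carries the protons. Of 7 V1 subunits that passed the filter, 6 were lower in high phosphate as deposited and 7 after rescaling, with a median log2 ratio of -0.13 (-0.29 rescaled). Their summed FPKM were 789.4 and 697.8, a ratio of 0.884. Subunit F (Atp6v1f), part of the central rotor stalk, was listed at 284 and 234 FPKM and had the lowest log2 ratio of the sector, -0.28. The peripheral stalk subunits G (Atp6v1g1) and E (Atp6v1e1) had 233 and 213 FPKM and 107 and 92.1 FPKM. The rotor subunit D (Atp6v1d) had 126 and 122 FPKM, and the nucleotide-binding subunit B2 (Atp6v1b2) 36.0 and 33.0 FPKM. All 5 of these were lower in high phosphate, by no more than 0.28 on the log2 scale.

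The 2 remaining V1 subunits were far less abundant per transcript length. The catalytic subunit A (Atp6v1a), which every pump needs together with subunit B, had 2.3 and 2.56 FPKM and was the 1 V1 member above 0 (log2 ratio 0.11, and -0.01 rescaled). Atp6v1c2, an isoform of subunit C, had 1.28 and 1.02 FPKM and was the member closest above the filter. An FPKM this low beside a partner subunit at 36.0 FPKM is given as listed; estimation of transcript abundance can fail for single genes, and its part in this value was not tested.

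Both measured V0 subunits were lower and both accessory proteins higher, on either scale. The V0 subunit d1 (Atp6v0d1), which couples the rotor to the membrane ring, was listed at 119 and 109.9 FPKM (log2 ratio -0.11), and the small subunit e1 (Atp6v0e1) at 111 and 108 FPKM (-0.03). Atp6ap1, known as Ac45 and needed for pump assembly, was listed at 244 and 284 FPKM. Its log2 ratio of 0.22 (0.05 rescaled) stood on the other side of 0 from the pump's abundant subunits. Its relative Atp6ap1l had 4.83 and 6.92 FPKM and the highest log2 ratio of all members, 0.44 (0.29 rescaled). The isoforms of restricted tissues were near 0: Atp6v0d2, known from osteoclasts, was listed at 0 and 0.16 FPKM and Atp6v1e2, known from testis, at 0.21 and 0.32 FPKM, while their widely expressed counterparts Atp6v0d1 and Atp6v1e1 had 119 and 107 FPKM in the control.

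**Figure D2:**
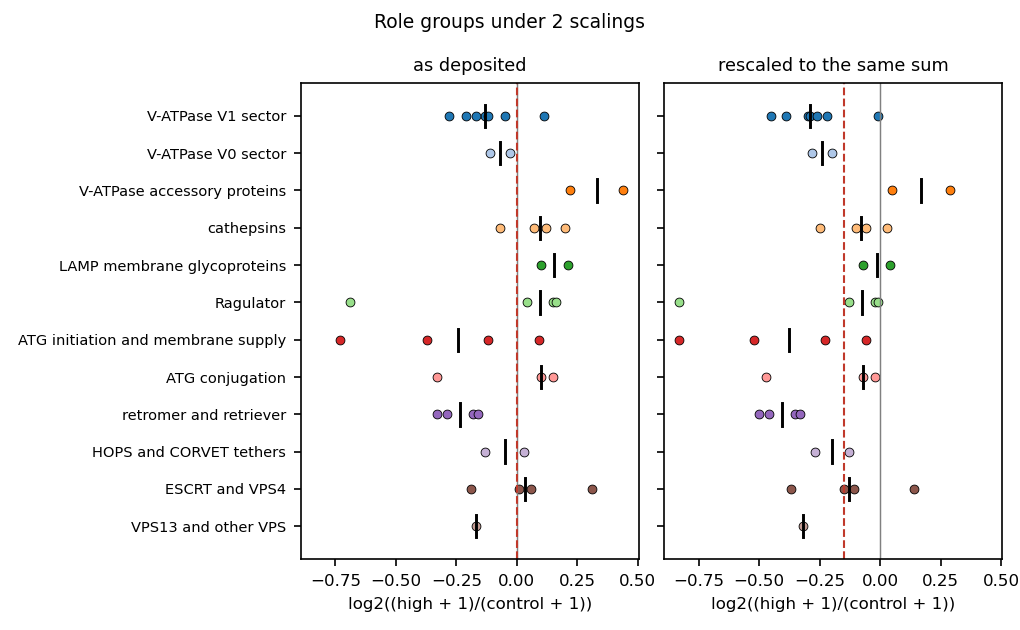
Log2 ratio of high to control phosphate (FPKM + 1; horizontal axis) of each member by role group (vertical axis), as deposited on the left and with equal library sums on the right; black bars are group medians and the red dashed line is the median of all 4366 genes (0.00 and -0.15). On both scales the medians of 6 groups lie left of that line (V1, V0, ATG initiation, retromer and retriever, tethers and Vps45) and those of the other 6 lie right of it; the accessory proteins (0.33 and 0.17) are farthest right.

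Ragulator holds the Rag GTPases on the lysosome, and 4 of its subunits were measured. Lamtor2 was listed at 105 and 117 FPKM, Lamtor4 at 70.3 and 78.6 FPKM and Lamtor5 at 57.6 and 59.1 FPKM. These 3 were higher as deposited, with log2 ratios of 0.04 to 0.16, and 0 of the 4 was higher after rescaling. Lamtor3, the partner of Lamtor2 in the scaffold's core, stood apart, with 7.13 FPKM in control cells against 4.03 FPKM after high phosphate, a ratio of 0.565 (log2 ratio -0.69). It was also the least abundant of the 4. Such a low FPKM beside its partner Lamtor2 is given as listed, and the part of transcript abundance estimation in it was not tested. Of all genes with a mean of 5 to 50 FPKM, 2.63% were at least 1.5-fold lower.

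The 7 ATG members lay between 1.34 and 34.8 FPKM in either library. Those that start the autophagosome and supply its membrane were lower in 3 of 4 cases as deposited and in all 4 after rescaling, with a median log2 ratio of -0.24 (-0.37 rescaled). Atg9a, the scramblase that travels on vesicles to the growing membrane, had 2.89 FPKM in control cells against 1.34 FPKM after high phosphate, a ratio of 0.464. With the added 1 its log2 ratio was -0.73. With 0.1 added in place of 1 it was the only member past 2-fold, and 1.42% of all genes were then at least 2-fold lower. At these levels the rounding step and unknown read numbers weigh most, and 6.72% of genes with a mean of 1 to 5 FPKM were at least 1.5-fold lower. Atg2a, which transfers lipid into that membrane, had 9.44 and 7.07 FPKM (log2 ratio -0.37). Atg14, the subunit that directs the Beclin 1 lipid kinase to autophagy, had 2.12 and 1.88 FPKM, and Atg101, a subunit of the ULK kinase complex, 7.54 and 8.09 FPKM.

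Of the conjugation machinery that attaches ATG8 proteins to lipid, 3 members were measured. Atg3, the E2-like enzyme, had 32.4 and 34.8 FPKM, and the ubiquitin-like Atg12 18.2 and 20.3 FPKM. Atg4d, a protease that processes ATG8 proteins, was lower, with 6.78 and 5.2 FPKM (log2 ratio -0.33). As deposited 2 of these 3 were higher, and after rescaling 0 of 3. Atg16l1, counted with the membrane-supply group here although it places the conjugation at the membrane, lay just under the filter with 0.71 and 0.81 FPKM.

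Among the VPS proteins, the subunits of the recycling coats were lower together. Retromer and retriever return cargo receptors from endosomes, and all 4 measured subunits were lower on both scales, with summed FPKM of 200.9 and 168.1, a ratio of 0.837. Vps35, the retromer scaffold, was listed at 72.95 and 59.7 FPKM (log2 ratio -0.29). Vps35l, its counterpart in retriever, had 51.55 and 40.9 FPKM (-0.33). Vps29, shared by both coats, had 42.5 and 37.35 FPKM, and Vps26b, a retromer arrestin-fold subunit, 33.9 and 30.2 FPKM. The 4 log2 ratios ran from -0.33 to -0.16, where the lower quartile of all genes was -0.17. Vps45, which serves SNARE fusion at early endosomes, was also lower, with 7.65 and 6.69 FPKM.

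The ESCRT proteins, which bud vesicles into endosomes, were mixed. Vps28, of ESCRT-I, had 83.0 and 103 FPKM, the highest log2 ratio of the VPS members at 0.31 (0.14 rescaled). Vps37b, of the same complex, had 17.55 and 17.7 FPKM. Vps25, of ESCRT-II, had 82.2 and 71.7 FPKM (-0.19), and Vps4b, the ATPase that takes ESCRT filaments apart, 44.2 and 46.2 FPKM. As deposited 3 of 4 were higher, and after rescaling 1 of 4, Vps28.

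Of 8 genes sought for the HOPS and CORVET tethers, 3 were listed and 2 measured, so the tethers as a class were not read. Vps18, a core subunit shared by the HOPS and CORVET tethers, was listed at 6.29 and 5.67 FPKM. Vps33b, a relative of the HOPS subunit Vps33a, had 7.84 and 8.01 FPKM. Vps11, another core subunit, was under the filter with 0.44 and 0.21 FPKM. Just inside the filter stood Atp6v1c2, Atg14 and Atg9a, and just outside it Atg16l1, Ctss and Vps11.

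**Figure D3:**
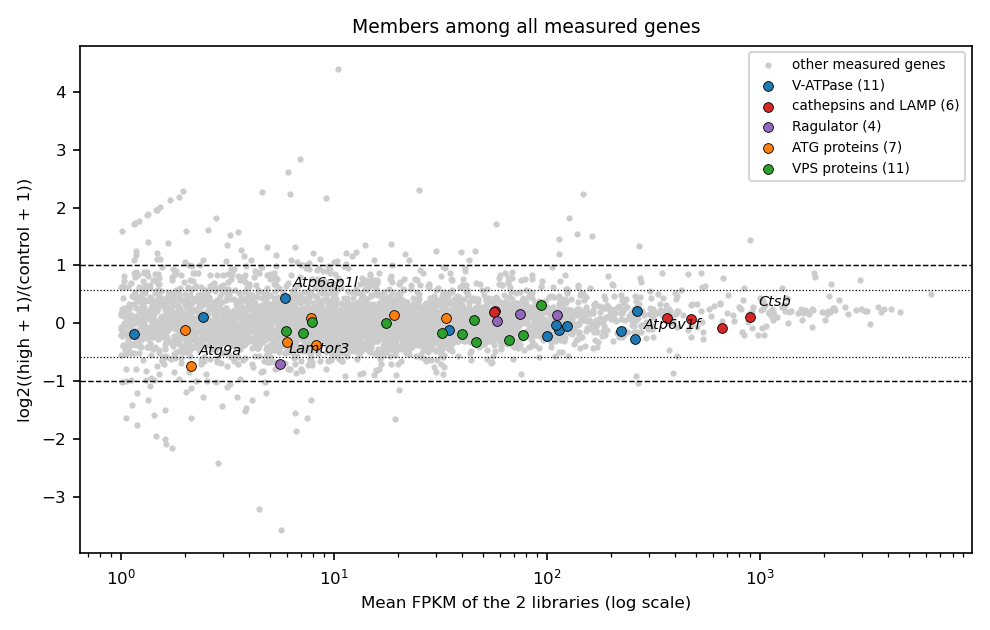
Log2 ratio of high to control phosphate (FPKM + 1; vertical axis) against mean FPKM of the 2 libraries (log axis) for 4366 measured genes in grey, with the 39 members coloured by family; dashed lines mark 2-fold and dotted lines 1.5-fold. Members span the range of levels up to Ctsb, and only Atg9a and Lamtor3 lie past a dotted line.

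Other genes of the same pathways were read from lists of their known components. Their counts above 0 stand beside 50.5% of all genes as deposited and 32.2% after rescaling. In the list of autophagy kinases, ATG8 proteins and receptors, 9 of 13 measured genes lay above 0 as deposited, 3 after rescaling (median log2 ratio 0.10, and -0.07). The ATG8 proteins that coat autophagosomes were among those within 0.25 of 0: Gabarap, the most abundant of the list, had 301 and 325 FPKM, Map1lc3b 77.6 and 78.4 FPKM and Map1lc3a 64.5 and 69.0 FPKM. Gabarapl1 was higher, with 19.8 and 27.1 FPKM (log2 ratio 0.43). The cargo receptor p62 (Sqstm1) was lower, with 184 and 151 FPKM (-0.29). Bnip3, the mitophagy receptor and a known target of hypoxia-inducible factor, was the 1 gene of the list at least 2-fold higher (log2 ratio 2.23). Over all genes 1.76% were. The receptor for autophagy of the endoplasmic reticulum Tex264 was the lowest, with 5.11 and 2.15 FPKM (-0.96).

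Soluble lysosomal enzymes other than cathepsins were listed with their activators and 2 cathepsin inhibitors. Of 27 measured, 22 were higher as deposited and 15 after rescaling, beside 50.5% and 32.2% of all genes. Their median log2 ratio was 0.18 (0.01 rescaled), beside 0.00 (-0.15) for all genes. Many of these genes lie above a mean of 50 FPKM, where 62.9% of all genes were higher, with a median of 0.09. The serine carboxypeptidase Scpep1 had 109 and 170 FPKM (0.63). Pld3, a lysosomal exonuclease, was listed at 0.92 and 8.24 FPKM, the 1 gene of this list past 2-fold (2.27), with its control value under 1 FPKM. Of all genes 1.76% were at least 2-fold higher, and 3.14% of those with a mean of 1 to 5 FPKM. Between 0.37 and 0.40 lay the glycosidase genes Fuca1 with 76.3 and 98.7 FPKM, Glb1 with 68.2 and 90.1 FPKM and Man2b2 with 47.5 and 61.5 FPKM. The cathepsin inhibitors did not share this direction: cystatin B (Cstb), the most abundant of the list, had 341 and 289.9 FPKM, the lowest log2 ratio at -0.23, and cystatin C (Cst3) 279.9 and 274 FPKM.

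The list of lysosomal membrane proteins lay on both sides of 0. It also counts Lyset and the soluble Npc2, which are not proteins of that membrane. Of 21 measured, 9 were higher as deposited and 6 after rescaling, and 3 were at least 1.5-fold lower, beside 3.37% of all genes and 2.63% of those between 5 and 50 FPKM. These were Npc1, the exporter of cholesterol, with 11.7 and 7.06 FPKM (-0.65), the transporter Mfsd1 with 12.0 and 7.43 FPKM (-0.63), and Lyset, which is needed to tag enzymes with mannose 6-phosphate, with 25.7 and 13.4 FPKM (-0.89). The cystine exporter Ctns followed with 8.16 and 5.22 FPKM (-0.56). Its most abundant genes were higher: Laptm4a had 420 and 523 FPKM (0.32), Npc2, the soluble partner of Npc1, 309.7 and 365.5 FPKM (0.24), and the tetraspanin Tspan3 111 and 149 FPKM, the highest of the list at 0.42. Over all genes above a mean of 50 FPKM the median log2 ratio was 0.09, and between 5 and 50 FPKM it was -0.02.

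**Figure D4:**
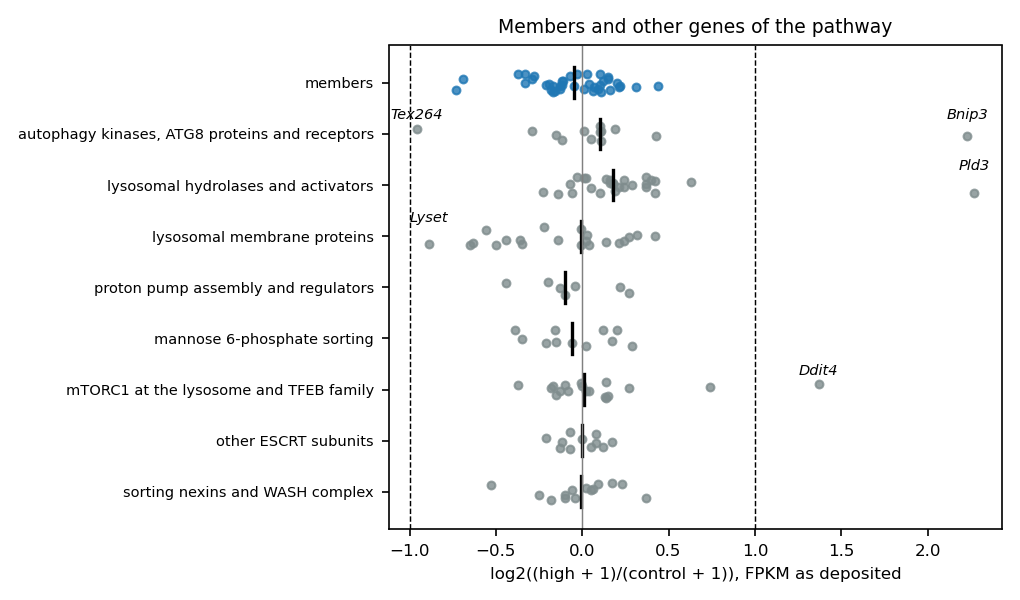
Log2 ratio of high to control phosphate (FPKM + 1, as deposited; horizontal axis) for the 39 members (blue) and the measured genes of 8 lists of other pathway components (grey), 1 point per gene with vertical jitter; black bars are medians and dashed lines mark 2-fold. Bnip3, Pld3 and Ddit4 lie beyond 2-fold, and Tex264 and Lyset are the lowest.

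At the mTORC1 node, 10 of 18 measured genes lay above 0 as deposited, 3 after rescaling (median 0.01). The kinase Mtor had 3.22 and 3.28 FPKM, its activator Rheb 87.0 and 95.8 FPKM and the Rag GTPases Rraga 72.5 and 67.5 FPKM and Rragc 77.7 and 59.75 FPKM, the lowest of the list at -0.37. Ddit4, which inhibits mTORC1 and responds to low oxygen, was the 1 gene at least 2-fold higher (1.37), beside 1.76% of all genes. The translation repressor Eif4ebp1, a substrate of mTORC1, had 86.4 and 145 FPKM (0.74). The most abundant gene was Bloc1s1, of a complex that positions lysosomes, with 140.5 and 156 FPKM.

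The 4 remaining lists held 0 genes past 1.5-fold. Assembly and regulation of the proton pump had 2 of 7 genes higher on both scales, with the assembly factor Tmem199 lowest at 23.8 and 17.3 FPKM (-0.44) and Tmem9 highest (0.27). That list also counts Rabac1, its most abundant gene with 151 and 177 FPKM, and Sptlc1, which are not pump factors. Rabac1 is among the 2 higher genes, so that count depends on it. In the list for sorting by mannose 6-phosphate, 5 of 11 were higher, 2 rescaled. They ran from Gnptg, a subunit of the tagging enzyme, with 21.1 and 15.9 FPKM (-0.39) to clathrin light chain Cltb, the most abundant, with 89.9 and 110.0 FPKM (0.29). This list also counts Sumf1 and the adaptor genes Ap3d1, Ap3s2, Ap3b1 and Ap3m1, which do not serve that sorting. Of these all but Ap3d1 were higher as deposited, so the count depends on them. Gga2, Ap1m1, Ap1s2, Gnptab and Gnptg were lower. The other ESCRT subunits lay between -0.21 (Pdcd6ip) and 0.17 (Vta1), and Snf8, their most abundant, had 81.9 and 89.1 FPKM. The list of sorting nexins and the WASH complex, partners of retromer, had a median of -0.01. The most abundant, Snx3, a cargo adaptor of retromer, was highest at 121 and 157 FPKM (0.37) and Washc1 lowest at 26.8 and 18.3 FPKM (-0.53). The list also counts Rab5c and several COMMD genes, such as Commd1 and Commd3, so its median is not that of sorting nexins and WASH subunits alone.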

How the data were processed

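RNA from 2 H9c2 cultures, 1 library per phosphate level, had been sequenced. The authors deposited FPKM with 2 decimals, per the file headers. Tools named in the submitters' processing notes are Cufflinks 2.2.1, Cuffdiff, TopHat2 2.1.1 and bcl2fastq, with the build Rnor_6.0; no source used here states the annotation, strand settings, handling of shared reads or scaling. Of 8039 entries, 236 (2.94%) had no usable gene identifier and were left out. Identifiers were matched to symbols in an NCBI table of GRCr8, used for names; promoter windows are RefSeq sequences of the same assembly and were searched on both strands.

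The difference was log2((high + 1)/(control + 1)) for genes averaging 1 FPKM or more, with thresholds of 2-fold and 1.5-fold. With 1 library per level no test was run, and the depth is unknown. The calculation was tested on simulated data. Members and lists were chosen with earlier results of these data known. Named were members past 1.5-fold, the most abundant, highest and lowest of each role group or list, genes past 2-fold in the other lists, and further members of each complex. Other genes of the lists (for example Ctns, Fuca1, Sqstm1 and Eif4ebp1) were named after their values were seen. Alternatives were other pseudocounts, scalings and filters. Python 3.11.15, numpy 2.4.6, pandas 2.3.3 and matplotlib 3.10.9 were used.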

Additional observations from a re-analysis of the deposited data

How the results depend on the processing

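Counts of members past each threshold, their median and the count above 0 were recomputed under 8 alternatives: 44 of 48 values were unchanged within 1.5 times for counts or within 0.1 log2 units for the median. With a pseudocount of 0.1, 1 member (Atg9a) in place of 0 was at least 2-fold lower, beside 1.42% of all genes. From a mean of 5 FPKM, 1 member (Lamtor3) in place of 2 was at least 1.5-fold lower, because Atg9a is under that filter. Of all genes passing that filter 2.17% were. After rescaling to the same sum, 5 members in place of 18 lay above 0 and their median was -0.22, beside -0.15 over all genes. Rescaling to the same median ratio left 18 members above 0 (median -0.05), and to the same upper quartile 17 (median -0.07). The first of these could change little, since the median of all genes was already 0.00. No member crossed 1.5-fold under the other pseudocounts (0.1 and 0.5) or the 3 rescalings. Vps72, a chromatin remodelling subunit, was not among the members, so leaving it out could change no value and is not counted. Medians of role groups moved by more than 0.1 in 15 of 96 cases, 12 of them under rescaling to the same sum. The other 3 are the ATG initiation group under other filters (from -0.24 to between -0.14 and -0.12), where Atg16l1 enters or Atg9a and Atg14 leave. No paired analysis was possible because each phosphate level had 1 library. Groups of 1 library also allow no outlier check.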
